A study of Homo sapiens with 12 samples.

Results

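The genes described here are 10 genes of the cellular oxygen response, read in a small cell lung cancer line with and without caffeic acid phenethyl ester (CAPE). They are HIF1A and EPAS1, which encode the oxygen-labile alpha subunits of hypoxia-inducible factor (HIF), EGLN1 and EGLN3, which encode prolyl hydroxylases that mark those subunits for destruction, and VEGFA, NDRG1, ANKRD37, BNIP3, BNIP3L and CA9, targets of HIF outside glucose metabolism. They were taken by symbol from a table of 34886 gene symbols, and all 10 were present and passed the filter on low counts, which kept 13595 genes. The cells were NCI-H446, an established human line grown in medium with serum, and both groups were treated for 8 h. One group received 40 µM CAPE, a phenolic ester found in propolis, dissolved in dimethyl sulfoxide (DMSO), and the other the same volume of DMSO. Messenger RNA (mRNA) and microRNA (miRNA) were sequenced in 3 DMSO and 3 CAPE libraries each, 12 in all. The labels name no separate cultures for the replicates, so the p-values here reflect only how these libraries varied, which could be technical variation. No library was grown at low oxygen, so no hypoxic reference stands beside the CAPE values.

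When oxygen is plentiful, the EGLN prolyl hydroxylases use oxygen, iron and 2-oxoglutarate to hydroxylate HIF alpha subunits, which the von Hippel-Lindau protein (VHL) then routes to the proteasome. When hydroxylation fails, the alpha subunit accumulates, pairs with ARNT and binds short DNA elements near its targets. EGLN1 and EGLN3 are themselves HIF targets, which closes a feedback loop, and the alpha subunits are controlled mainly as proteins, which RNA sequencing does not measure.

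The mRNA libraries held 17569997 to 20917508 estimated counts, and one of them, DMSO 3, stood apart from the other 5. Its scaling factor for library composition was 0.699 against 1.07 to 1.09 elsewhere, and it had 16207 genes detected against 17864 to 18587. Its log2 CPM (counts scaled to library size and composition) deviated from the average of the other controls by a median of 0.943 in the decile of shortest genes and of -1.02 in the decile of longest genes. The part of this in the results was not tested. Each comparison is therefore given with all 6 libraries and without DMSO 3. Neuroendocrine and subtype markers of small cell lung cancer were at or near 0: 5 of 7, NEUROD1 and INSM1 among them, stayed under 1 CPM in every library, and all 7 summed to 0.992 to 3.28 CPM in DMSO and 1.12 to 1.89 CPM in CAPE. Markers of other cell types summed to 44.7 to 66.6 CPM in DMSO and 62.1 to 66.9 in CAPE for 6 fibroblast genes, to 3.64 to 4.79 and 2.02 to 3.32 for 5 endothelial genes, and to 24.1 to 49.9 and 25.6 to 28.1 for 5 immune genes, of which CD3E was at 0 in every library. Of the few such markers abundant enough to be tested, 2 of 7 neuroendocrine or subtype, 1 of 5 endothelial and 2 of 5 immune genes, none passed in either fit. Of the 5 fibroblast markers tested none passed with 6 libraries, and COL1A1 was higher and DCN lower without DMSO 3 (log2 fold changes 0.27 and -0.33). Of all genes tested 1.95% passed with 6 libraries and 41.2% without DMSO 3, so these few marker calls are near background. In these bulk samples a change of RNA within every cell and a change in the number of cells expressing a gene cannot be told apart.

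The core of the element that HIF binds reads ACGTG or GCGTG, on either strand. It was searched in the 250 bases before the RefSeq start sites (GRCh38.p14) of the 7 genes with an entry in the promoter table, HIF1A with 2 start sites and the rest with 1. VEGFA, NDRG1 and BNIP3L had no entry and were not searched, and their log2 fold changes without DMSO 3 were 1.27, 2.58 and 1.37. At least 1 core lay before a start site of 6 of the 7 genes, and 6 of 8 windows held one, against 43.2% of 35116 windows of the same length for all genes. The stretches that hold the cores are shown because the genes behind them had log2 fold changes from -0.26 (HIF1A) to 1.47 (EGLN1) without DMSO 3. They read 5′ to 3′ along the gene's own strand, with cores in capitals, and a core on the other strand appears as CACGT or CACGC.
ANKRD37 (chr4:185396667-185396714, plus strand): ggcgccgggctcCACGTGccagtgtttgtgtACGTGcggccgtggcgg
BNIP3 (chr10:131982011-131982078, minus strand): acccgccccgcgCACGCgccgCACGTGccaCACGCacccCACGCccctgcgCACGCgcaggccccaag
EGLN1 (chr1:231422288-231422312, minus strand): gggccgtggtgtACGTGcagagcgc
CA9 (chr9:35673898-35673926, plus strand): tcgtttccaatgCACGTacagcccgtaca
EPAS1 (chr2:46297278-46297306, plus strand): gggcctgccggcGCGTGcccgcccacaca
HIF1A (chr14:61695297-61695325, plus strand): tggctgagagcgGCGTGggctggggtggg
BNIP3 held 6 matches and ANKRD37 held 3, counting both strands of the palindrome CACGTG in each, and at least 2 matches were found in 19.4% of all windows. EGLN1, CA9, EPAS1 and the first start site of HIF1A held 1 each, and the windows of EGLN3 and of the second HIF1A start site held none. A match is a description of these letters and not a measured binding site.

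The comparison asked which of the 10 genes changed with CAPE. These genes were chosen with earlier results of these data known, so their share of calls is a description only. Without DMSO 3, 9 of the 10 genes rose and 1, HIF1A, fell in edgeR's quasi-likelihood test (Benjamini-Hochberg adjusted p under 0.05 over all 13919 genes fitted). In that fit 41.2% of all genes were called, 20.4% higher and 20.8% lower, so a call by itself is common, whereas a call with a rise of at least 2-fold was made for 4.38% of all genes and for 6 of the 10. With all 6 libraries 5 of the 10 rose, EGLN1, VEGFA, NDRG1, BNIP3 and BNIP3L, and none fell, where 1.95% of all genes were called, 1.49% higher and 0.456% lower. DESeq2 on the same libraries called 7 of the 10, EPAS1 and EGLN3 in addition, and 4.63% of all genes higher. The median log2 fold change of the 10 was 1.15 with 6 libraries and 1.30 without DMSO 3, beside -0.01 and 0.00346 over all genes tested. For 8 of the 10 every CAPE library lay above every DMSO library, DMSO 3 included, as it did for 21.4% of all genes tested; HIF1A and CA9 were the exceptions. Set against DMSO 1 and DMSO 2 alone, the same held for 9 of the 10 and for 31.5% of all genes. The 5 calls with 6 libraries did not hold with 5 that include DMSO 3: none of the 10 passed when DMSO 1, DMSO 2, CAPE 1, CAPE 2 or CAPE 3 was left out, and all 10 passed when DMSO 3 was left out. In the same order, those 5 fits called 9 of 13870, 17 of 13883, 0 of 13820, 6 of 13793 and 0 of 13809 genes in all. The loss of calls was thus general to those fits and not particular to the 10 genes. Without DMSO 3, 41.2% of all genes were called. The fold changes stayed near their size when the calls were lost, with log2 values of 2.13 to 2.33 for NDRG1, 1.55 to 1.65 for EGLN1, 1.40 to 1.53 for VEGFA, 1.07 to 1.22 for BNIP3 and 1.48 to 1.62 for BNIP3L.

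**Figure D1:**
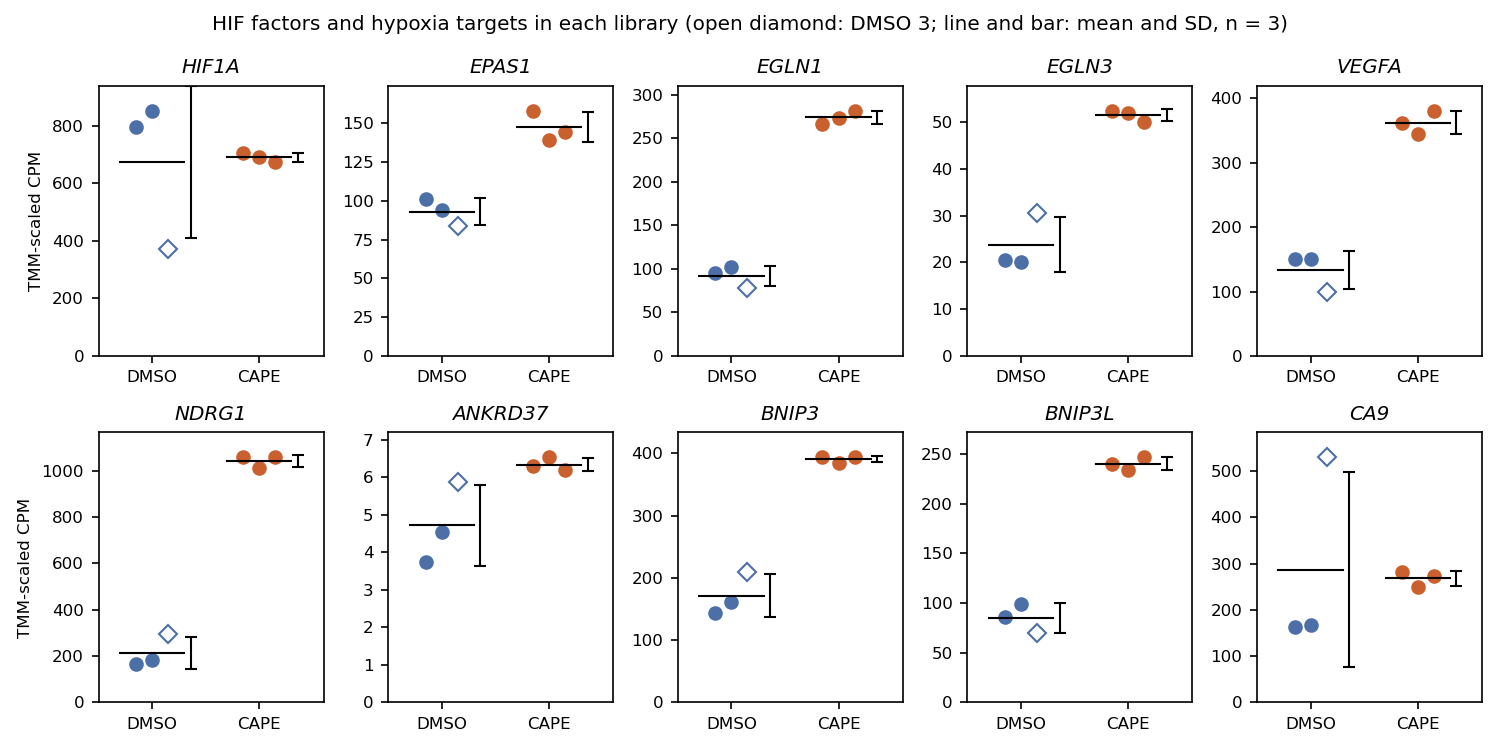
Scaled counts (CPM, vertical axes starting at 0, 1 panel per gene) in each mRNA library, DMSO in blue and CAPE in orange, with the mean and SD of 3 libraries; the open diamond is DMSO 3. The CAPE libraries lie close together, and DMSO 3 lies below all other libraries for HIF1A (370 CPM) and above all of them for CA9 (531 CPM).

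HIF1A, the widely expressed alpha subunit on chromosome 14 (61695513 to 61748258, GRCh38.p14), measured 796, 853 and 370 CPM in DMSO 1, 2 and 3 and 706, 690 and 675 CPM in CAPE 1, 2 and 3. DMSO 1 and DMSO 2 lay above every CAPE library and DMSO 3 far below them, so the groups overlapped. With 6 libraries the log2 fold change was 0.04 (SE 0.32, edgeR adjusted p = 0.948), and without DMSO 3 the log2 value of HIF1A fell by 0.26 (SE 0.04, edgeR adjusted p = 2.49e-04). The sign thus turned with 1 control library.

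EPAS1, which encodes the second alpha subunit, HIF-2 alpha, lies on chromosome 2 (46297407 to 46386697). It measured 101, 94.0 and 84.0 CPM in DMSO and 158, 139.5 and 145 CPM in CAPE, with no overlap. The rise did not pass with 6 libraries (log2 fold change 0.66, SE 0.15, edgeR adjusted p = 0.105) and passed without DMSO 3 (0.59, SE 0.06, adjusted p = 1.65e-06). The deposited TPM (transcript abundances, in which counts are divided by transcript length) gave EPAS1 33.4, 33.2 and 14.2 in DMSO and 56.6, 59.0 and 59.9 in CAPE. On the log2(TPM + 1) scale the change without DMSO 3 was 0.79 (limma adjusted p = 4.43e-04). The EPAS1 count per TPM, which follows the transcript length assigned to the gene, was 57.5 and 54.2 in DMSO 1 and 2 and 52.9, 44.5 and 47.3 in CAPE, and was thus lower in each CAPE library than in either.

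The level of HIF1A over that of EPAS1, both in TPM, was 10.8 and 11.6 in DMSO 1 and DMSO 2 and 5.91, 5.61 and 5.47 in the CAPE libraries. DMSO 3 held 5.38, below all of the CAPE libraries, so this ratio separates the groups only without that library.

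EGLN1, the main oxygen-sensing hydroxylase of HIF, lies on chromosome 1 (231363756 to 231422287). It measured 95.2, 102 and 78.6 CPM in DMSO and 267, 274 and 282 CPM in CAPE, and every CAPE library held more than any DMSO library. The rise was 2.99-fold with 6 libraries (log2 fold change 1.58, SE 0.16, edgeR adjusted p = 0.0158) and 2.78-fold without DMSO 3 (1.47, SE 0.05, adjusted p = 1.22e-11). EGLN3, a hydroxylase of the same family that hypoxia induces in many cell types, lies on chromosome 14 (33924227 to 33951074). It measured 20.6, 20.2 and 30.6 CPM in DMSO and 52.5, 52.1 and 50.2 CPM in CAPE, with no overlap although DMSO 3 stood above the other controls. Its log2 fold change was 1.12 with 6 libraries (SE 0.21, edgeR adjusted p = 0.0635), which did not pass, and 1.34 without DMSO 3 (SE 0.07, adjusted p = 1.40e-09), which did.

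VEGFA, the secreted growth factor that drives vessel growth, lies on chromosome 6 (43770211 to 43786487). It measured 150.0 CPM in DMSO 1, 150.0 in DMSO 2 and 100.0 in DMSO 3, and 361, 344 and 381 CPM in CAPE. The groups were well apart, and VEGFA rose 2.72-fold with 6 libraries (log2 fold change 1.44, SE 0.21, edgeR adjusted p = 0.0322) and 2.41-fold without DMSO 3 (1.27, SE 0.05, adjusted p = 5.55e-11).

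NDRG1, a stress-responsive cytoplasmic protein linked to growth restraint, lies on chromosome 8 (133237175 to 133297252) and changed most of the 10 in both fits. It measured 165, 182 and 294 CPM in DMSO and 1059, 1013 and 1058 CPM in CAPE. Even the highest control, DMSO 3, lay far below the lowest CAPE library. The rise was 4.88-fold with 6 libraries (log2 fold change 2.29, SE 0.26, edgeR adjusted p = 0.0213) and 5.99-fold without DMSO 3 (2.58, SE 0.05, adjusted p = 2.55e-13), where it ranked 94 of 13919 genes by log2 fold change.

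ANKRD37, a small ankyrin-repeat protein known as a direct HIF target, lies on chromosome 4 (185396841 to 185400723) and was the least abundant of the 10. It rested on 71, 87 and 86 counts in DMSO and 119, 123 and 121 in CAPE, which are 3.74, 4.54 and 5.88 CPM and 6.29, 6.54 and 6.19 CPM. The groups did not overlap, but DMSO 3 lay just under the lowest CAPE library. The change did not pass with 6 libraries (log2 fold change 0.43, SE 0.22, edgeR adjusted p = 0.350) and passed without DMSO 3 (0.61, SE 0.15, adjusted p = 0.00499). That call was lost when DMSO 1 was left out as well (0.47, edgeR adjusted p = 0.0647) and on the log2(TPM + 1) scale (0.30, limma adjusted p = 0.191). The ANKRD37 count per TPM was 7.95 and 7.75 in DMSO 1 and 2 and 8.73, 9.71 and 10.6 in CAPE, so the groups differed less in TPM than in counts.

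BNIP3 and BNIP3L (also called NIX) encode related outer-membrane proteins that mark mitochondria for autophagy, the process called mitophagy. BNIP3, on chromosome 10 (131967684 to 131981923), measured 143, 161 and 210.2 CPM in DMSO and 394, 385 and 394 CPM in CAPE. BNIP3L, on chromosome 8 (26383054 to 26413127), measured 86.1, 99.2 and 69.8 CPM in DMSO and 240.2, 233 and 247 CPM in CAPE. Neither gene's groups overlapped, and DMSO 3 was the highest control for BNIP3 and the lowest for BNIP3L. BNIP3 rose 2.28-fold with 6 libraries (log2 fold change 1.19, SE 0.19, edgeR adjusted p = 0.0407) and 2.56-fold without DMSO 3 (1.36, SE 0.05, adjusted p = 4.16e-11). BNIP3L rose 2.83-fold (1.498, SE 0.18, adjusted p = 0.0218) and 2.59-fold (1.37, SE 0.06, adjusted p = 1.46e-10) in the same fits. BNIP3 may share reads with its pseudogenes, of which 39 listed in the table summed to 10 to 30 counts in DMSO and 43 to 66 in CAPE beside 2716 to 3083 and 7240 to 7707 for BNIP3.

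CA9, a carbonic anhydrase at the cell surface that helps to regulate pH, lies on chromosome 9 (35673928 to 35681159). It measured 163, 168 and 531 CPM in DMSO and 282, 249.8 and 274 CPM in CAPE. The CAPE libraries lay above DMSO 1 and DMSO 2 and far below DMSO 3. With 6 libraries the log2 fold change was -0.10 (SE 0.49, edgeR adjusted p = 0.908), and without DMSO 3 CA9 rose 1.62-fold (0.70, SE 0.05, adjusted p = 8.83e-08). As for HIF1A, the sign turned without DMSO 3. With all 6 libraries CA9 also lay above 0 with other processing, for example at 0.0674 with upper-quartile factors and 0.56 on the log2(TPM + 1) scale. Neither value passed (edgeR adjusted p = 0.932 and limma adjusted p = 0.304). The median over all genes was itself 0.0797 and 0.31 in these fits, so the first value lay below it.

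**Figure D2:**
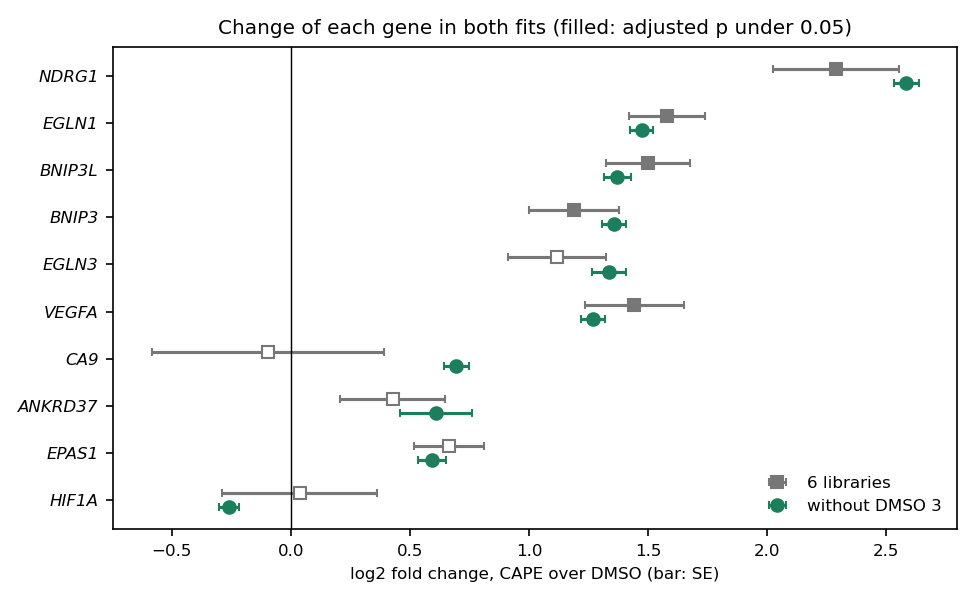
Log2 fold change of CAPE over DMSO (horizontal axis, bars are SE) for each gene with 6 libraries (grey squares) and without DMSO 3 (green circles), filled where the adjusted p was under 0.05. The 2 fits lie on opposite sides of 0 for HIF1A and CA9, and NDRG1 stands highest in both (2.29 and 2.58).

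DMSO 3 deviated from the mean of DMSO 1 and DMSO 2 by between -1.16 (HIF1A) and 1.68 (CA9) on the log2 scale. By relative transcript length HIF1A lay at the 74.4th percentile of the genes tested and CA9 at the 27.7th, and EGLN1 was the longest (88.2th) and ANKRD37 the shortest (9.47th). The 5 longest of the 10, EGLN1, EPAS1, HIF1A, BNIP3L and VEGFA, all lay below that average in DMSO 3, and the 5 shortest all above it. With an offset for transcript length in the 6-library fit, 6 of the 10 passed, EGLN3 in addition (log2 fold change 1.14, edgeR adjusted p = 0.0261), against 2.05% of all genes rising. HIF1A and CA9 then had log2 fold changes of -0.09 and 0.17 that did not pass (adjusted p = 0.827 and 0.775). With limma's voom and sample quality weights, which gave DMSO 3 a weight of 0.02 against 2.02 to 2.46, 9 of the 10 rose and HIF1A fell, where 21.4% of all genes rose.

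**Figure D3:**
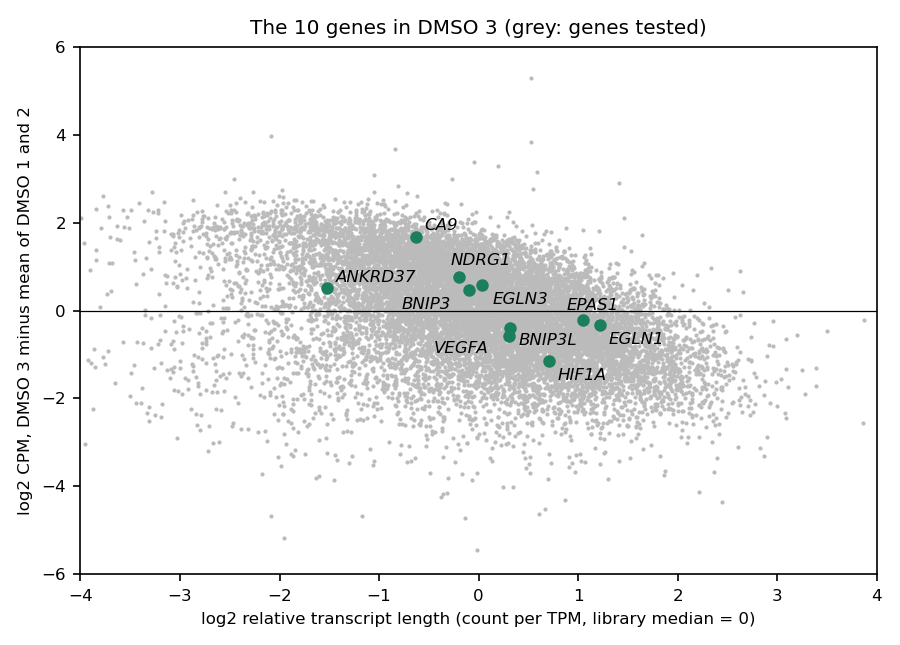
Log2 CPM of DMSO 3 minus the mean of DMSO 1 and DMSO 2 (vertical axis) against log2 relative transcript length (horizontal axis), with the 10 genes in green and genes tested in grey; 68 genes lie outside the axes. HIF1A lies at -1.16 and CA9 at 1.68 on the vertical axis.

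Set side by side per transcript length, HIF1A was the most abundant of the 10 in DMSO 1 and DMSO 2, at 361 and 386 TPM. CA9 (185 and 194 TPM), NDRG1 (139 and 174), BNIP3 (127 and 129), VEGFA (99.2 and 92.9) and BNIP3L (53.4 and 60.4) followed in that order with no overlap between neighbours. EPAS1 (33.4 and 33.2 TPM) and EGLN1 (31.1 and 33.8) did not differ beyond their spread, and EGLN3 (15.6 and 13.8) and ANKRD37 (8.93 and 11.2) were lowest. In CAPE the order changed at the top. NDRG1 led with 893 to 956 TPM, while HIF1A held 327 to 335, CA9 295 to 334 and BNIP3 315 to 325, and CA9 overlapped both HIF1A and BNIP3. VEGFA held 210.3 to 237 TPM in CAPE, BNIP3L 139.8 to 143, EGLN1 85.6 to 93.1, now above EPAS1 at 56.6 to 59.9, EGLN3 37.9 to 40.2 and ANKRD37 11.4 to 13.6. In DMSO 3 CA9 led with 282 TPM, and HIF1A held 76.3.

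**Figure D4:**
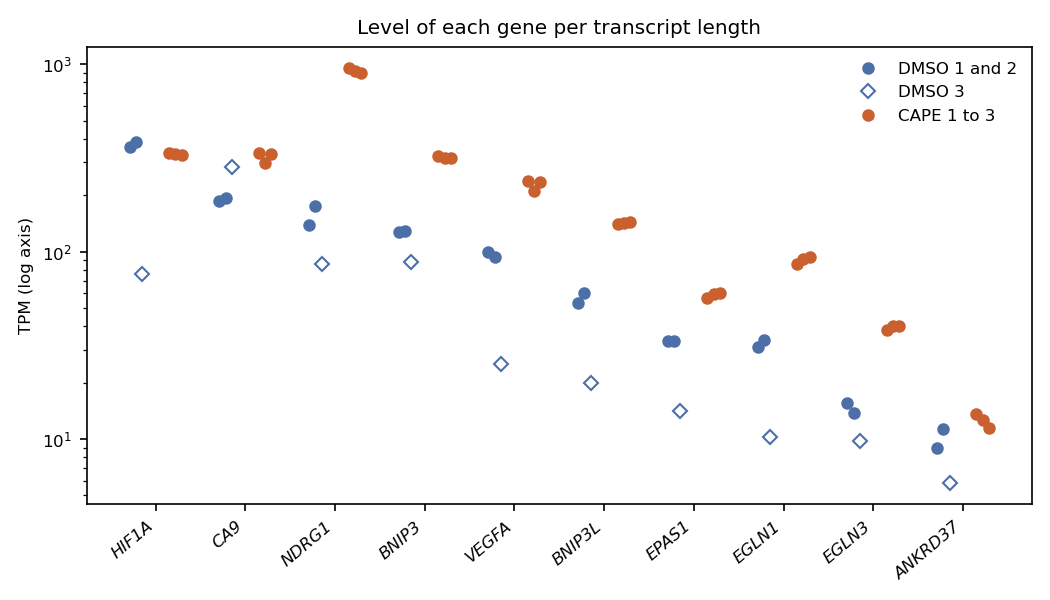
Deposited TPM of each gene (log axis) in each mRNA library, ordered by the mean of DMSO 1 and DMSO 2. NDRG1 moves from the rank behind HIF1A and CA9 in DMSO 1 and 2 to the top in CAPE (893 to 956 TPM), and DMSO 3 is the lowest library for each gene except CA9.

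Most of the remaining machinery of the pathway did not pass the test. Of 18 genes for the partners, hydroxylases, VHL complex and coactivators of HIF 17 were tested. None passed with 6 libraries, where only 1.95% of all genes were called, so 0 of 17 is near the background of that fit too. Without DMSO 3 4 rose and 3 fell, with a median log2 fold change of -0.03. The machinery was thus called at about the background of the fit without DMSO 3, in which 41.2% of all genes passed, and the single calls below are descriptions of those genes. CITED2, which competes with HIF for its coactivators and is itself hypoxia-inducible, measured 41.5, 41.5 and 58.1 CPM in DMSO and 87.1, 94.0 and 78.9 CPM in CAPE. Its change passed without DMSO 3 (log2 fold change 1.06, SE 0.07, edgeR adjusted p = 3.25e-08) but not with 6 libraries (0.88, adjusted p = 0.0977). SIAH2, a ubiquitin ligase that targets EGLN proteins, rose without DMSO 3 (log2 fold change 0.89), at 37.3 and 38.2 CPM in DMSO 1 and 2 and 68.0 to 72.5 CPM in CAPE, while DMSO 3 held 68.7 CPM. SIAH1, named after its values were seen, and VHL were the other two that rose (0.45 and 0.20). ARNT, the constitutive partner of the alpha subunits, measured 82.8, 83.3 and 78.6 CPM in DMSO and 75.7, 74.5 and 73.4 CPM in CAPE. Without DMSO 3 its log2 value fell by 0.16 (SE 0.05, edgeR adjusted p = 0.0218), and EGLN2 and COPS5 each fell by 0.18. HIF1AN, the asparaginyl hydroxylase that blocks coactivator binding, did not pass in either fit (0.11 and 0.13, edgeR adjusted p = 0.628 and 0.110).

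The lists of further targets were chosen with earlier results of these data known, so their counts are descriptions and no independent evidence. Of 26 further hypoxia targets outside glycolysis 25 were tested. With 6 libraries 10 rose and none fell, where 1.49% of all genes rose, and without DMSO 3 24 rose and none fell, where 20.4% did, with medians of 1.19 and 1.21; FOSL2, named after its values were seen, was the exception (0.08, edgeR adjusted p = 0.114). ADM, the vasodilator peptide adrenomedullin, measured 24.5, 24.3 and 39.3 CPM in DMSO and 150.2, 147 and 154 CPM in CAPE (log2 fold change 2.35 with 6 libraries and 2.62 without DMSO 3, edgeR adjusted p = 0.0158 and 4.45e-13). INSIG2, a regulator of sterol synthesis, measured 22.6, 22.5 and 11.6 CPM in DMSO and 93.3, 90.1 and 95.9 CPM in CAPE (2.30 and 2.04, adjusted p = 0.0253 and 7.77e-12). The largest change in that list, named after its values were seen, was in BHLHE41, a transcriptional repressor of the circadian system, at 0.685 to 0.992 CPM in DMSO and 12.7, 13.1 and 14.01 CPM in CAPE. Of 22 glycolytic hypoxia targets 4 rose with 6 libraries and 20 without DMSO 3, with medians of 0.30 and 0.50 and none lower, beside the same shares of all genes (1.49% and 20.4%). PFKFB4 and ENO2 had the smallest p (log2 fold changes 2.36 and 2.21 without DMSO 3), and ALDOA and PKM, named after their values were seen, did not pass (0.11 and 0.12). The difference between the glycolytic list and the other lists was not tested.

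**Figure D5:**
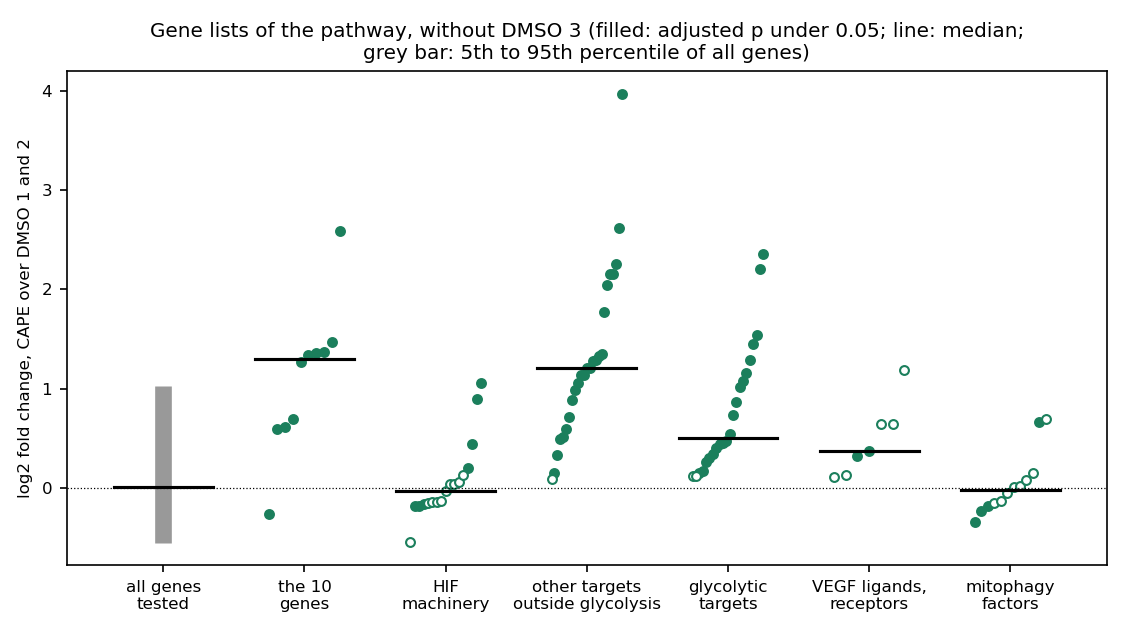
Log2 fold change of CAPE over DMSO 1 and 2 (vertical axis) for single genes of each list, filled where the adjusted p was under 0.05, with list medians as lines and the 5th to 95th percentile of all genes as a grey bar. The 10 genes (median 1.30) and the other targets outside glycolysis (1.21) lie higher than the HIF machinery (-0.03). All lists were chosen with earlier results of these data known.

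Genes that act beside the single targets were also read, and their calls without DMSO 3 are to be set against the 20.4% of all genes that rose and the 20.8% that fell. Their lack of calls with 6 libraries is to be set against the 1.95% of all genes called there. Of 9 other VEGF ligands and receptors 7 were tested; none passed with 6 libraries, and without DMSO 3 NRP2, a coreceptor, and VEGFC, a lymphatic growth factor, rose (0.32 and 0.37), a count of 2 of 7 near that background. KDR, the main signalling receptor of VEGFA, named after its values were seen, had 0 counts in every library. Of 13 mitophagy factors 12 were tested and none passed with 6 libraries. Without DMSO 3 MAP1LC3B, an autophagosome protein that BNIP3 and BNIP3L can bind, rose (0.66, edgeR adjusted p = 4.70e-07), and GABARAPL1 (-0.35), PHB2 (-0.19) and GABARAPL2 (-0.23), the last named after its values were seen, fell; these 4 of 12 calls are also no more than the 41.2% of all genes called. The NDRG1 paralogues NDRG3, named after its values were seen, and NDRG4 did not pass in either fit (-0.11 and -0.30 without DMSO 3). Of 10 other carbonic anhydrases 6 were tested and none passed with 6 libraries. CA12, the other tumour-associated surface enzyme, measured 135, 145 and 113 CPM in DMSO and 231, 223 and 233 CPM in CAPE and rose without DMSO 3 (log2 fold change 0.71, SE 0.05, edgeR adjusted p = 2.33e-08). It is also in the list of further hypoxia targets outside glycolysis, so its rise is counted there too. CA13 and CA2, the latter named after its values were seen, rose with CA12 (0.92 and 1.05).

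The miRNA libraries gave a readout of the pathway from another assay. MIR210 on chromosome 11 is a HIF target known for its steady induction by hypoxia, and its 2 mature arms are shown with the seed (bases 2 to 8, which pairs with target transcripts) in capitals, from RefSeq (GRCh38.p14, minus strand).
hsa-miR-210-3p (chr11:568112-568133): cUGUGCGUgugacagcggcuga
hsa-miR-210-5p (chr11:568150-568171): aGCCCCUGcccaccgcacacug
The 3p arm, the abundant one, measured 348, 364 and 420.4 CPM in DMSO and 359.8, 382 and 425 CPM in CAPE. The groups overlapped, and the log2 fold change was 0.04 (SE 0.13, edgeR adjusted p = 0.863), with values between -0.05 and 0.10 under the 11 alternatives run. The 5p arm rested on 25, 40 and 74 counts in DMSO and 45, 65 and 67 in CAPE, which are 3.81, 5.36 and 8.16 CPM and 8.17, 9.84 and 12.98 CPM. The groups met at DMSO 3 and CAPE 1 without overlapping. Its change did not pass (log2 fold change 0.81, SE 0.29, edgeR adjusted p = 0.0959), where 7.4% of the 527 miRNAs tested were called higher and 4.36% lower. Of the 11 alternatives it passed in 3. These were without DMSO 3 (1.08, edgeR adjusted p = 0.00345), where 11.2% of miRNAs were higher in CAPE, and with the replicate number as a block (0.86, edgeR adjusted p = 0.0325). The last was voom with sample quality weights (1.05, limma adjusted p = 0.00480), which gave DMSO 3 a weight of 0.247. Among the rest were DESeq2 (0.79, adjusted p = 0.101) and the fit without DMSO 1 (0.56, edgeR adjusted p = 0.299). All values were positive, from 0.56 to 1.08.

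The genes whose values over the 6 libraries were most like those of 3 of the targets were found by the root mean square difference of log2 CPM after each gene's own mean was subtracted, among 9668 genes. For VEGFA these were FAM129A (0.0837), CXCL8 (0.0849) and BNIP3L (0.0896). For BNIP3 they were JUN (0.0574), EGLN3 (0.08) and DUSP1 (0.0811), and for ANKRD37 ZFYVE1 (0.0704), SFXN3 (0.0718) and HIP1R (0.0861). Thus VEGFA and BNIP3 each had another of the 10 genes among their nearest 3. Nearness was measured over all 6 libraries of both groups, DMSO 3 included. A like change with CAPE and a like deviation in DMSO 3 were thus part of the choice and are no separate result. In that library VEGFA and BNIP3L both lay below the other controls, and BNIP3 and EGLN3 both above them.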

How the data were processed

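The mRNA values were estimated counts per gene symbol as deposited by the authors, made with bcl2fastq and kallisto 0.46.1 against GRCh38 per the submitters' processing notes, and TPM values the authors deposited beside them. The sources used here do not give the annotation release, the strand setting or the way transcripts were summed to genes, so reads antisense to a gene cannot be told apart. The miRNA values were raw counts as deposited by the authors, in 2888 entries with 2656 names, and for a repeated name only its largest entry by total counts entered. Their libraries held 4637576 to 8933025 counts, and the miRNA counter is not given in the sources used here.

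Counts were used as the whole numbers deposited, filtered with filterByExpr, scaled with TMM and compared by edgeR's quasi-likelihood F test (edgeR 4.0.16, R 4.3.3) over the whole table, with Benjamini-Hochberg adjustment and a threshold of 0.05. CPM are TMM-scaled, a prior count of 2 was added for log2 CPM, and SE is the log2 fold change divided by the square root of F. Relative transcript length is the count divided by the TPM, scaled by the library median. Alternatives used DESeq2 1.42.0 and limma 3.58.1. Tests were checked on simulated counts with genes changed 1.5-fold, 2-fold and 4-fold. With 6 mRNA libraries 0 of 67, 0 of 67 and 46 of 66 were recovered, with 2 false calls. Without DMSO 3 63 of 67, 67 of 67 and 66 of 66 were, with 28 false calls, a share of the calls above the threshold of 0.05. For miRNA 36 of 67, 66 of 67 and 66 of 66 were, with 4 false calls. A gene that did not pass with 6 mRNA libraries may thus still have changed 2-fold. The simulation gave every library the same spread per gene, while in the data DMSO 3 alone stood apart. The counts recovered with 6 mRNA libraries need therefore not hold for the data, where BNIP3 passed at 2.28-fold. The 10 genes, the lists and the tests were chosen with earlier results of these data known. Named were the 10 genes, 4 fixed genes of the machinery (ARNT, HIF1AN, VHL, EGLN2), and per list the 2 passing genes with the smallest p in each direction without DMSO 3, or the gene with the smallest p where none passed; genes outside this rule are marked where they are named. Nearest genes needed an average log2 CPM of at least 3. One marker gene is not reported here.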

Additional observations from a re-analysis of the deposited data

How the results depend on the processing

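The count of genes passing was 265 with 6 libraries and 1022 with DESeq2, 5592 with voom weights, 407 with the offset for transcript length, and 135 and 88 with limma on log2(TPM + 1) and log2(TPM + 0.1). It ran from 0 to 5731 when 1 library was left out, the highest without DMSO 3. In the 0 counts without CAPE 1 and without CAPE 3 edgeR gave 1178 and 1099 genes an unadjusted p under 0.05. Among the 10 genes 5 passed, 10 with voom weights, 3 and 2 on the TPM scales, and 0 to 10 with 1 library left out. The TPM scales moved the median log2 fold change of all genes to 0.31 and 0.40, against which their values are to be read. CA9 changed sign to 0.0674 with upper-quartile factors, where the median over all genes was 0.0797. It also changed sign to 0.15 with the replicate block, 0.69 with voom weights, 0.17 with the length offset and 0.56 on both TPM scales. With 1 library left out CA9 ran from -0.39 to 0.70. HIF1A changed sign to -0.25 with voom weights and -0.085 with the offset. On both TPM scales it was 0.59 and did not pass (limma adjusted p = 0.598 and 0.597). With 1 library left out HIF1A ran from -0.26 to 0.24. The cause was not tested.

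Without DMSO 3, 5731 genes passed, 3046 and 3051 with limma on the 2 TPM scales, and 4510 to 5391 when a further library was left out, an alternative chosen after seeing the data. In that fit each of the 10 genes kept its direction in all 9 alternatives run, and all but ANKRD37 passed in each. The miRNA count was 62, 115 with voom weights and 17 to 128 with 1 library left out. miR-210-3p changed sign to -0.042 with no filter and ran from -0.0461 to 0.0984.

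The labels number replicates 1 to 3 in both groups. Deviations from the group means of same-numbered mRNA libraries correlated at -0.194, 0.14 and -0.00853 and those of miRNA libraries at 0.107, 0.0115 and 0.117. Not every library correlated best with its own number. The DMSO mean included DMSO 3, and mRNA libraries DMSO 1 and DMSO 2 gave like values (-0.194 and -0.184 with CAPE 1, 0.212 and 0.14 with CAPE 2). These correlations thus cannot decide whether the numbers are pairs. The labels name no pairing, so the main fits used none. With the replicate block the mRNA count was 0 of 13595 (1384 genes with an unadjusted p under 0.05 in edgeR), 0 of the 10 genes passed, and the miRNA count was 63. The block left the log2 fold changes of the 5 genes called near their size (NDRG1 2.34, EGLN1 1.59, VEGFA 1.46, BNIP3 1.21, BNIP3L 1.51), and miR-210-5p passed with it (0.86, edgeR adjusted p = 0.0325). Depth limits ANKRD37 and miR-210-5p, which rest on under 130 counts a library.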
